A study of Mus musculus with 7 samples.

Results

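The arginine and itaconate metabolism of macrophages was followed through 6 genes in single-cell RNA profiles of the inflamed mouse central nervous system. They are Slc7a2, Arg1, Nos2, Ass1, Acod1 (listed in the files under its older symbol Irg1) and Sod2. They were chosen by symbol, and all 6 were among the 27998 genes that every library lists. The series holds 7 droplet libraries of cells taken at the peak of experimental autoimmune encephalomyelitis (EAE), a model of multiple sclerosis, which was induced in B6 mice with the MOG35-55 peptide. Cells from wild-type mice (WT, labelled Lag3wt) or from Lag3-deficient mice (Lag3KO, labelled as carrying a floxed Lag3 allele, with no Cre driver named) were enriched with beads for CD4 or for CD45. Groups were 5 mice each, and the labels do not say which mice went into which library. There were 2 WT_CD4, 2 Lag3KO_CD4, 2 WT_CD45 and 1 Lag3KO_CD45 libraries, so p-values here measure only the spread between libraries, which may be technical.

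Arginine enters an activated macrophage through the cationic amino acid transporter Slc7a2. Arginase 1 (Arg1) splits it into ornithine and urea, and inducible nitric oxide synthase (Nos2) oxidises it to citrulline and nitric oxide; argininosuccinate synthase (Ass1) starts the return of citrulline to arginine. Acod1 makes itaconate from a citric acid cycle intermediate, and Sod2 is the manganese superoxide dismutase of mitochondria, induced with Acod1 and Nos2 by inflammatory signals. Arg1 is a textbook marker of alternatively activated and tissue-repair macrophages and Nos2 of classically activated ones, and both are known in the macrophages that enter the central nervous system in EAE.

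In GRCm38 coordinates, Slc7a2 lies on chromosome 8 at 40862396 to 40922308 (plus strand), Arg1 on chromosome 10 at 24915221 to 24927484 (minus strand) and Nos2 on chromosome 11 at 78920787 to 78960254 (plus strand). Ass1 lies on chromosome 2 at 31470207 to 31520672, Acod1 on chromosome 14 at 103046977 to 103056573 and Sod2 on chromosome 17 at 13006846 to 13040063, all 3 on the plus strand. Promoters from RefSeq (GRCm38.p6) matched 3 of the 6 members, Acod1, Ass1 and Sod2, and are shown because Acod1 and Sod2 were detected together with Nos2 while Ass1 was spread over most cell classes. They are printed from 5′ to 3′ on the plus strand with a motif match in capitals. The printed stretches stop 35, 63 and 22 bases before the RefSeq start sites of Acod1, Ass1 and Sod2, and positions are counted back from those start sites.
Acod1, chr14:103046762-103046976: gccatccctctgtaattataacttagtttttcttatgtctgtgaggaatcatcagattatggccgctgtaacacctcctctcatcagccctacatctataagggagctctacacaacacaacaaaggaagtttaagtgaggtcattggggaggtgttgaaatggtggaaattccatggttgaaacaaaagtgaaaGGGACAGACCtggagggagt
Ass1, chr2:31470020-31470206: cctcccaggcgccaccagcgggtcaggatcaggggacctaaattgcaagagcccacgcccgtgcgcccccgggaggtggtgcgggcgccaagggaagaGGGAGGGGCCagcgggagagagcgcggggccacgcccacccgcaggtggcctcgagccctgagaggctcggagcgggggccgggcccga
Sod2, chr17:13007589-13007816: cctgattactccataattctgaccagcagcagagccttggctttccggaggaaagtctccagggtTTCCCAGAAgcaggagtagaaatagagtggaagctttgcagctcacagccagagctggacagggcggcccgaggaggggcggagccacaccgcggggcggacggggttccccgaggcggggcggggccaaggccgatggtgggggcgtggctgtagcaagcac
The capitals in Acod1 match the NF-kB motif GGGANNNNCC at -55 to -46 from the start site, and those in Ass1 match the same motif at -152 to -143. The capitals in Sod2 match the interferon gamma motif TTCNNNGAA (GAS) at -185 to -177. This Sod2 start site is the RefSeq one and lies inside the longer GENCODE span of the gene. Over both strands, the 250 bases before the start site held the NF-kB motif in 17.6% of 32851 mouse promoters and the GAS motif in 7.02%. The hypoxia motif ACGTG matched in an unprinted part of Acod1 at -18 and in overlapping matches of Ass1 at -36 and -35, against 16.6% of promoters. No match was found to the interferon response element GAAANNGAAA (2.98% of promoters), the STAT6 motif TTCNNNNGAA (5.85%), the C/EBP motif TTGCNNAA (9.56%) or the AP-1 motif TGANTCA (6.75%).

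Of 13411 cells kept, 4036 were Lyz2-high, that is, held at least 50 UMIs (unique molecular identifiers, 1 per captured transcript) of the myeloid lysozyme gene Lyz2 per 10000 UMIs. The CD4 libraries held 37 to 106 such cells and the CD45 libraries 1143 to 1388. In the CD45 libraries 60.0 to 68.2% of the Lyz2-high cells fell into clusters named monocyte- or macrophage-like from fixed markers, 265 to 369 cells fell into cluster CD45-0, and 208 to 304 cells were mixed barcodes, which also met a threshold on T cell transcripts. Cluster CD45-0 was left unnamed, because T cell genes such as Bcl11b were among those that led it although 940 of its 1194 barcodes were Lyz2-high; 70.6% met the T cell threshold, and the median depth was 12089.5 UMIs. The library labelled WT_CD45 2 had 4 Lag3 UMIs against 299 in WT_CD45 1 and 2 in Lag3KO_CD45 1, so its Lag3 level goes against its label, and genotype results are given with and without it. All 4 CD4 libraries held Xist (4084 to 5396 UMIs) and all 3 CD45 libraries the Y-linked Ddx3y (795 to 930 UMIs), so sort and sex cannot be told apart. Any pair of libraries shared at most 12 cell barcodes.

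Arg1, Slc7a2, Acod1 and Sod2 had higher levels in Lyz2-high cells, Ass1 was only slightly higher there, and Nos2 was carried by few cells. In the CD45 libraries Lyz2-high cells held at least 81.4% of the UMIs of each of these first 4 genes. In the CD4 libraries they were few and held only 11.3 to 30.5% of Sod2 UMIs. They held 6.98% of Acod1 UMIs in WT_CD4 2, and 6.92% of Acod1 and 9.09% of Slc7a2 UMIs in Lag3KO_CD4 2. Levels are UMIs per 1000000 UMIs (CPM) of the summed cells of each library, in the order WT_CD4 1 and 2, Lag3KO_CD4 1 and 2, WT_CD45 1 and 2, and Lag3KO_CD45 1. Slc7a2 stood at 39.2, 10.6, 35.7, 9.33, 43.6, 40.8 and 48.0 CPM in Lyz2-high cells, and at 0 to 15.5 CPM in the other cells of the same libraries. Every library was higher in its Lyz2-high cells, although the lowest 2, WT_CD4 2 and Lag3KO_CD4 2, lie within the range of the other cells over libraries. Slc7a2 differed by 2.58 ± 0.48 (log2, standard error; adjusted p = 0.00174, edgeR quasi-likelihood test with Benjamini-Hochberg adjustment). The levels in the CD4 libraries rest on 2 to 16 UMIs each.

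Arg1 stood at 1274, 402, 865, 728, 642, 278 and 825 CPM in Lyz2-high cells. In the other cells it stood at 7.27, 0.478, 11.4, 47.2, 125, 16.2 and 58.1 CPM. The groups of cells did not overlap, and the difference was 5.02 ± 0.72 (log2; adjusted p = 0.000399, edgeR). In the CD45 libraries 89.8, 96.5 and 96.5% of all Arg1 UMIs lay in Lyz2-high cells, which held 63.1, 61.6 and 65.8% of all UMIs. In Lag3KO_CD4 2 the share was 40.4%, so most Arg1 there came from cells under the Lyz2 threshold. Arg1 was detected in 52.6% of Lyz2-high cells of WT_CD45 1 (95% exact Clopper-Pearson interval 49.8 to 55.4), 35.9% of WT_CD45 2 (33.1 to 38.7) and 55.0% of Lag3KO_CD45 1 (52.3 to 57.6). Intervals cover counting error only. A small part of these cells carried most of it: the top 10% of cells by Arg1 held 57.6, 68.0 and 54.5% of the Arg1 UMIs, with up to 112 UMIs in a cell.

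Nos2 stood at 18.1, 10.6, 22.3, 4.67, 34.2, 7.87 and 14.3 CPM in Lyz2-high cells, resting on 1 to 10 UMIs in the CD4 libraries and on 386, 75 and 172 UMIs in the CD45 libraries. The other cells held 0, 0.717, 0.219, 3.49, 25.5, 5.05 and 5.45 CPM; the 0 of WT_CD4 1 allows a share of up to 0.165% of cells with a UMI. The Lyz2-high value was the higher one in each library, yet Nos2 did not pass the test over the 7 libraries (1.19 ± 0.48, adjusted p = 0.0709, edgeR). It passed in the 3 CD45 libraries alone (0.82 ± 0.16, adjusted p = 0.00107, edgeR), with DESeq2 (2.64, adjusted p = 0.00712) and when the Lyz2 threshold was lowered to 25 per 10000 (2.34 ± 0.47, adjusted p = 0.00267, edgeR). Nos2 was detected in 11.9, 3.76 and 7.49% of Lyz2-high cells of the CD45 libraries. In WT_CD45 2 and Lag3KO_CD45 1 fewer than 10% of these cells had Nos2, so the top 10% of cells necessarily held 100% of the Nos2 UMIs. In WT_CD45 1, with 11.9% of cells positive, they held 94.0%, a share also largely set by detection.

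Ass1 stood at 190, 307, 140, 299, 281, 332 and 240 CPM in Lyz2-high cells and at 156, 252, 124, 237, 239, 276 and 193 CPM in the other cells. The ranges overlap between libraries, but each library was slightly higher in its Lyz2-high cells, by 0.38 ± 0.08 (log2; adjusted p = 0.00367, edgeR). With a Lyz2 threshold of 100 per 10000 this call was lost (0.32 ± 0.12, adjusted p = 0.0568, edgeR). Acod1 stood at 163, 15.9, 145, 51.3, 148, 93.2 and 123 CPM in Lyz2-high cells and at 5.69 to 54.5 CPM in the others, a difference of 2.41 ± 0.43 (adjusted p = 0.00144, edgeR). Its 2 lowest Lyz2-high values, 15.9 CPM in WT_CD4 2 on 3 UMIs and 51.3 CPM in Lag3KO_CD4 2 on 11 UMIs, lie within the range of the other cells. Sod2 stood at 509, 233, 397, 397, 396, 322 and 454 CPM in Lyz2-high cells and at 82.6 to 155 CPM in the others, with no overlap (1.96 ± 0.16, adjusted p = 1.71e-05, edgeR). Of all 10374 genes tested, 39.4% were called between Lyz2-high and other cells and 16.9% were called higher in Lyz2-high cells. Of the 6 members, 5 were called and all 5 were higher. Without the library labelled WT_CD45 2 the same 5 were called, at 5.29 for Arg1, 3.03 for Slc7a2, 2.50 for Acod1, 2.05 for Sod2 and 0.44 for Ass1, and Nos2 was not (1.82, adjusted p = 0.0775, edgeR).

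**Figure D1:**
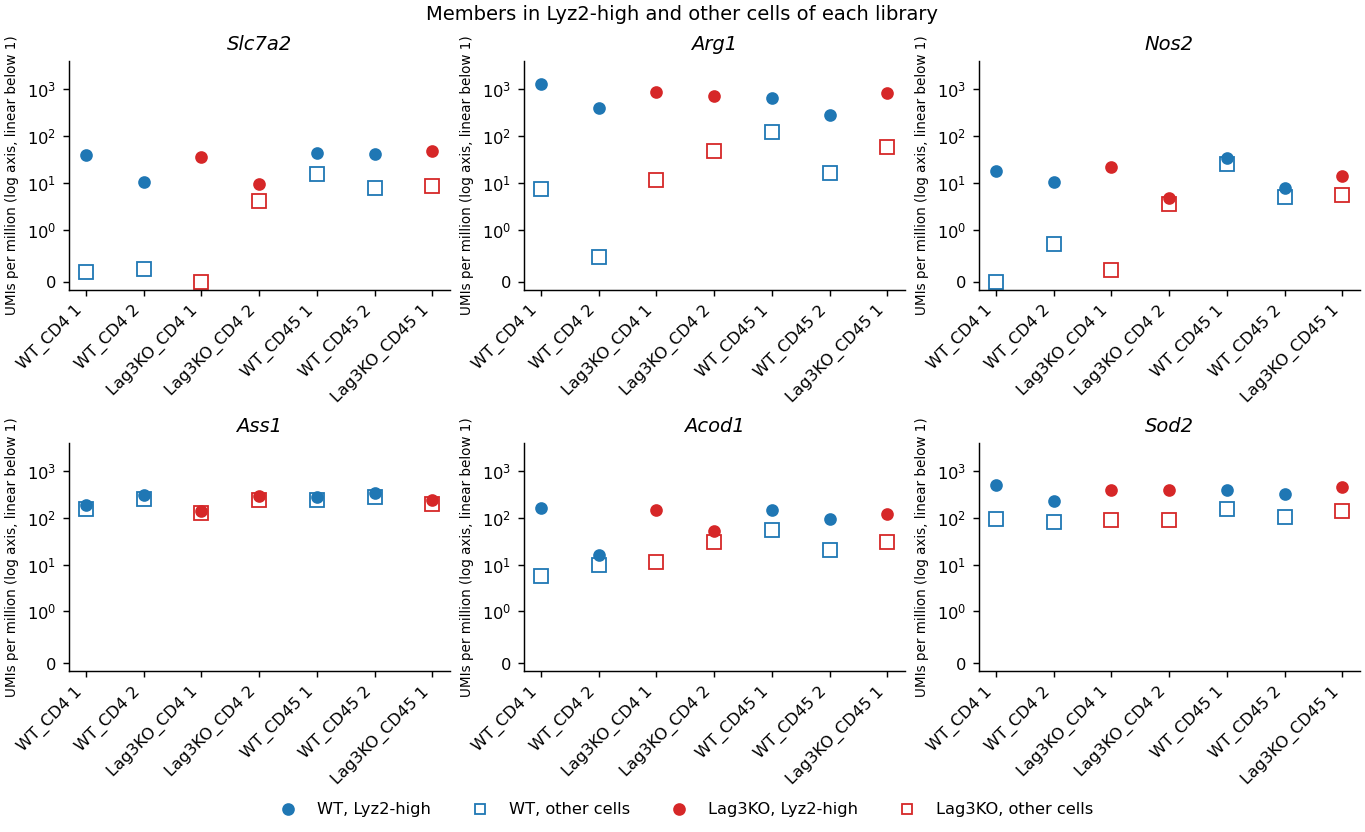
CPM of each member in the summed Lyz2-high cells (filled circles) and other cells (open squares) of each of the 7 libraries, on a log axis that is linear below 1. Arg1, Slc7a2 and Sod2 lie apart between the cells in every library, whereas Ass1 differs by little and Nos2 values of the CD45 libraries lie close together.

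Mixed barcodes and depth moved with these values. Lyz2-high cells of the CD45 libraries had median depths of 7193.5, 6590 and 6853.5 UMIs against 5231, 4534 and 4497.5 UMIs in the other cells. Without the mixed barcodes, Arg1 in Lyz2-high cells was 715, 298 and 931 CPM in the CD45 libraries, above the values with them, and the difference to the other cells was 3.87 ± 0.44 for Arg1 (adjusted p = 3.68e-05, edgeR) and 1.25 ± 0.37 for Acod1 (adjusted p = 0.019, edgeR). Ordinary T cells meet the same threshold, so this setting also changed the cells compared with: each CD4 library then held 166 to 280 other cells in place of 1325 to 1816. Nos2 was then too rare to be tested. Each cell was also thinned to 2000 UMIs. At that depth Arg1 was detected in 35.6, 21.9 and 40.4% of Lyz2-high cells of WT_CD45 1, WT_CD45 2 and Lag3KO_CD45 1, against 1.63, 0.612 and 2.55% of T cell-like cells, a class that should lack it (median depths before thinning 3318, 3200 and 3111 UMIs). Thinned Nos2 was detected in 4.54, 1.46 and 2.42% of Lyz2-high cells against 0.864, 0 and 0.0791% of T cell-like cells. Ass1 did not separate the classes in this way: 36.1, 41.4 and 34.7% of Lyz2-high cells and 21.6, 30.7 and 19.9% of T cell-like cells held it. Some other classes held more Arg1 than T cell-like cells. Unthinned and summed over the CD45 libraries, it stood at 89.6 CPM in B cell-like cluster CD45-9 and 140 in NK cell-like CD45-15. It was 118 CPM in plasmacytoid dendritic cell-like CD45-10, against 54.1 in monocyte- or macrophage-like CD45-12. Between 4.91 and 13.7% of cells in CD45-9, CD45-15 and CD45-10 were Lyz2-high. The source of their Arg1 was not tested.

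The Lyz2 threshold cut through a continuous range. In the CD45 libraries, cells with 25 to 50 Lyz2 UMIs per 10000 (337 cells) held 230 CPM of Arg1, 34.0 of Nos2 and 98.3 of Acod1. Cells with 50 to 100 (750 cells) held 338 CPM of Arg1, 23.3 of Nos2 and 112 of Acod1.

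Other genes of the pathways were read in the same comparison, from lists chosen by function. Over all 10374 genes tested, 39.4% were called, 1755 (16.9%) higher and 2334 lower. Of 20 arginine, urea cycle and polyamine genes tested, 8 were higher in Lyz2-high cells and 6 lower, with a median log2 difference of -0.02 against -0.10 over all genes tested. Besides the members, mitochondrial arginase Arg2 was higher by 2.73 ± 0.21, the spermidine acetyltransferase Sat1 by 1.11 ± 0.15 and the creatine synthesis genes Gatm and Gamt by 1.5 ± 0.30 and 2.03 ± 0.37. The transporter Slc7a1 fell by 0.86 (standard error 0.20), ornithine decarboxylase Odc1, the first step from ornithine to polyamines, fell by 1.21 (0.17) and spermine synthase Sms fell by 1.49 (0.25). The enzyme Gch1, which starts the making of the Nos2 cofactor tetrahydrobiopterin, was higher by 0.61 ± 0.11. Of 25 itaconate and citric acid cycle genes, 7 were higher and 4 lower, with a median of -0.01, close to that of all genes. Cytosolic isocitrate dehydrogenase Idh1 was higher by 1.98 ± 0.32 and Idh3a fell by 1.00 (0.16). Of 18 superoxide and peroxide genes, 12 were higher and 3 lower (median 0.71). The phagocyte oxidase subunit Cybb was higher by 3.04 ± 0.40 and peroxiredoxin Prdx5 by 2.40 ± 0.26. Of 10 genes of an Nrf2 and Atf3 list downstream of itaconate, which holds both regulators and targets, 6 were higher and 0 lower (median 0.69). Haem oxygenase Hmox1 was higher by 2.55 ± 0.28. All of these called values had adjusted p under 0.05 in edgeR.

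Within the macrophages the members peaked in different clusters. Cells were clustered without the members, and the values below describe the 3 CD45 libraries in the order WT_CD45 1, WT_CD45 2 and Lag3KO_CD45 1. Cluster CD45-8 (259 cells, led by Ccl24, Inhba, Clec4e, Il1rn and Il1a) was highest for Nos2, at 238, 97.6 and 88.0 CPM, and for Acod1, at 630, 765 and 656 CPM. It was also highest for Slc7a2 (144, 157 and 117 CPM) and Sod2 (1239, 1304 and 1336 CPM). For these 4 genes its lowest library lay above the highest library of every other cluster with at least 20 cells in each of the 3 libraries. Its 106, 60 and 93 cells held 31.4, 36.2 and 28.2% of all Nos2 UMIs of the 3 libraries. The unnamed cluster CD45-0, with 425, 327 and 442 cells, held 41.7, 25.7 and 30.1%.

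Arg1 had another order. Cluster CD45-2 (702 cells, led by Gpnmb, Apoe, Fabp5 and Spp1, genes of lipid-loaded phagocytes) held 1426, 616 and 2326 CPM of Arg1, and CD45-8 held 1381, 662 and 1085 CPM, ranges that overlap. Cluster CD45-1 (800 cells, led by Ccr2 and Mmp12) held 761, 152 and 831 CPM, and CD45-5 (505 cells, led by Cxcl10, Rsad2 and other interferon-induced genes) held 230, 108 and 259 CPM, again overlapping. Cluster CD45-12 (217 cells, led by the early monocyte gene Chil3 and by Ifitm6) held 41.3, 22.7 and 112 CPM. WT_CD45 2 was the lowest library in each of these 5 clusters. Nos2 in CD45-2 was 15.4, 8.12 and 19.8 CPM, under those of CD45-8 in each library, although Arg1 in the 2 clusters overlapped.

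Acod1 and Sod2 were high in the interferon cluster too. Among clusters with at least 20 cells in each of the 3 libraries, Acod1 was next highest after CD45-8 in CD45-5 (206, 148 and 193 CPM), above CD45-2 (113, 94.9 and 116 CPM) with no overlap. Sod2 in CD45-5 (569, 444 and 698 CPM) overlapped that in CD45-2 (496, 425 and 662 CPM). Both were low in CD45-12, at 26.9, 5.04 and 21.8 CPM for Acod1 and 176, 119 and 171 CPM for Sod2. Ass1 was high in CD45-8 (738, 780 and 475 CPM), CD45-1 (423, 592 and 387 CPM) and CD45-5 (380, 596 and 257 CPM), which overlap. In each library it was lower in CD45-2 (236, 282 and 254 CPM), but that range includes the 257 CPM of CD45-5 in Lag3KO_CD45 1. It stood at 279, 418 and 337 CPM in conventional dendritic cell-like cluster CD45-3, where Arg1 was 12.03, 2.88 and 32.7 CPM, and at 182, 238 and 131 CPM in T cell-like cells.

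**Figure D2:**
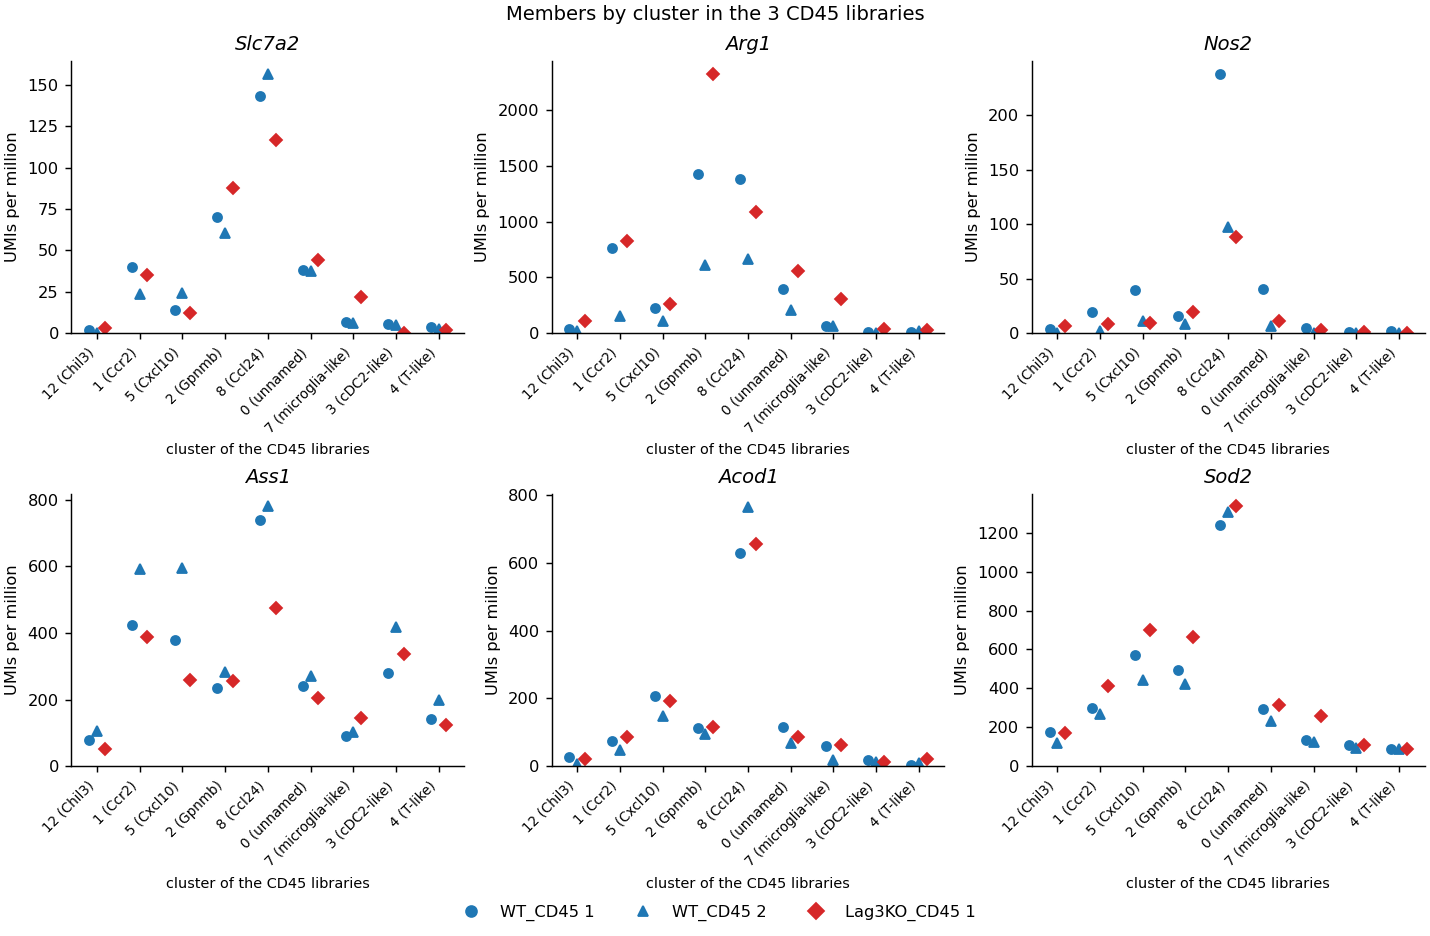
CPM of each member in 9 clusters of the CD45 libraries, 1 symbol per library, with a leading gene or the marker-based name of each cluster in brackets. Nos2, Acod1, Slc7a2 and Sod2 are highest in cluster 8 in all 3 libraries, whereas Arg1 is as high in cluster 2.

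Other myeloid classes held parts of the set. Neutrophil-like cells of the 4 CD4 libraries (49 to 82 cells each, median depth 858 to 1200 UMIs) had Acod1 at 247, 402, 439 and 1394 CPM, and 0 Arg1 UMIs in every library, which allows shares of up to 3.66 to 6.12% of cells with a UMI. Those of WT_CD45 1, the only CD45 library with at least 20 of them, held 371 CPM of Acod1 and 523 CPM of Arg1 in 51 cells of median depth 9005 UMIs. These CD45 cells carried more monocyte or macrophage RNA: their Lyz2 was 15658 CPM against 3286 to 5307 CPM in the neutrophil-like cells of the CD4 libraries, and 79.7 against 15.6% of the 2 clusters were Lyz2-high. Its part in the Arg1 level was not tested. Microglia-like cells of the CD4 libraries had 0 to 3.04 CPM of Arg1, 0 of Nos2 and Slc7a2 and 3.04 to 15.03 CPM of Acod1. In the CD45 libraries microglia-like cells had 60.5, 60.4 and 307 CPM of Arg1, but 54.2% of that cluster met the T cell threshold and 30.5% was Lyz2-high, with Lyz2 at 4332, 5342 and 8173 CPM against 355 to 600.2 CPM in microglia-like cells of the CD4 libraries. Microglial genes such as Tmem119 and P2ry12 led the cluster, but its score for monocyte or macrophage markers (0.776) was above that for microglia (0.754). The part of these cells in the Arg1 level was not tested.

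Over 33 sums of 11 classes in the 3 CD45 libraries, the genes whose log2 levels ran most like each member were read as a description; the classes share libraries and differ in depth, and Nos2 and Slc7a2 had a mean under 20 CPM. Arg1 ran most like the ferritin heavy chain Fth1 (Pearson r = 0.81), Clec4d (0.79) and Cd300lf (0.79). Nos2 ran most like Acod1 (0.81), Ninj1 (0.75) and Sod2 (0.74), so 2 of its 3 nearest genes among 5018 were members. Acod1 ran most like Slc43a2 (0.89), Slc7a2 like Saa3 (0.80) and Sod2 like Prdx5 (0.91). Ass1 had the weakest likeness, with Samhd1 (0.73), and its r with Arg1 was 0.15.

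Members were detected together in single Lyz2-high cells more often than their shares give. The measure is the log2 odds ratio over the 3 CD45 libraries (Mantel-Haenszel) with every cell thinned to 2000 UMIs, where 0 means no association. It is a description over cells of 3 libraries, with no test. All 15 pairs were above 0 in all 3 libraries. Lyz2-high cells span clusters that differ in the members: Arg1 and Acod1 stood at 54.1 and 18.3 CPM in CD45-12, against 1114 and 669 CPM in CD45-8. Pairs of other genes were not measured, and the part of such mixing in the ratios was not tested. The 3 highest pairs held Nos2: Nos2 with Acod1 2.23 (libraries 2.01 to 2.93), with Slc7a2 2.07 (1.72 to 2.79) and with Sod2 1.95 (1.83 to 2.04). Nos2 was held by 11.9, 5.76 and 6.19% of cells with Acod1 and by 2.93, 0.788 and 1.62% of cells without it. Acod1 with Sod2 reached 1.75 (1.60 to 1.87).

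For Arg1 the closest partner was the arginine transporter Slc7a2, although Slc7a2 had a higher ratio with Nos2 (2.07). Arg1 with Slc7a2 reached 1.62 (1.48 to 1.81): 58.9, 42.1 and 68.5% of cells with Slc7a2 held Arg1, against 33.9, 20.5 and 38.1% of cells without it. Arg1 with Acod1 was the lowest of the 15 pairs, at 0.39 (0.33 to 0.46). Arg1 with Ass1 was 0.56 and Arg1 with Sod2 0.64.

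Arg1 and Nos2, which compete for arginine, were detected under the same barcodes more often than their shares give. Arg1 with Nos2 had a log2 odds ratio of 0.97 (0.73 to 1.30). Of thinned cells of WT_CD45 1, WT_CD45 2 and Lag3KO_CD45 1, 2.15, 0.582 and 1.48% held both, against 1.62, 0.318 and 0.979% from the product of the shares. Among cells with Nos2, 47.3, 39.9 and 60.9% also held Arg1, against 35.1, 21.6 and 39.9% of the cells without Nos2. Of the unthinned cells with both, 48.6, 33.3 and 33.7% lay in cluster CD45-0, against 28.9, 37.8 and 34.1% of cells with Arg1 only and 15.5, 14.99 and 17.3% of cells with neither. The log2 odds ratio was 1.02 without mixed barcodes and 1.04 without CD45-0. Without thinning it was 1.53, and 70.9, 55.8 and 82.7% of Nos2 cells held Arg1. Within cluster CD45-8 alone, unthinned, 69.6, 33.3 and 82.1% of 46, 18 and 28 Nos2 cells held Arg1, against 43.3, 26.2 and 60.0% of its cells without Nos2. In cluster CD45-2 the shares were 80.0, 66.7 and 73.7% with Nos2 and 76.8, 53.4 and 78.5% without, so Lag3KO_CD45 1 went the other way there.

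**Figure D3:**
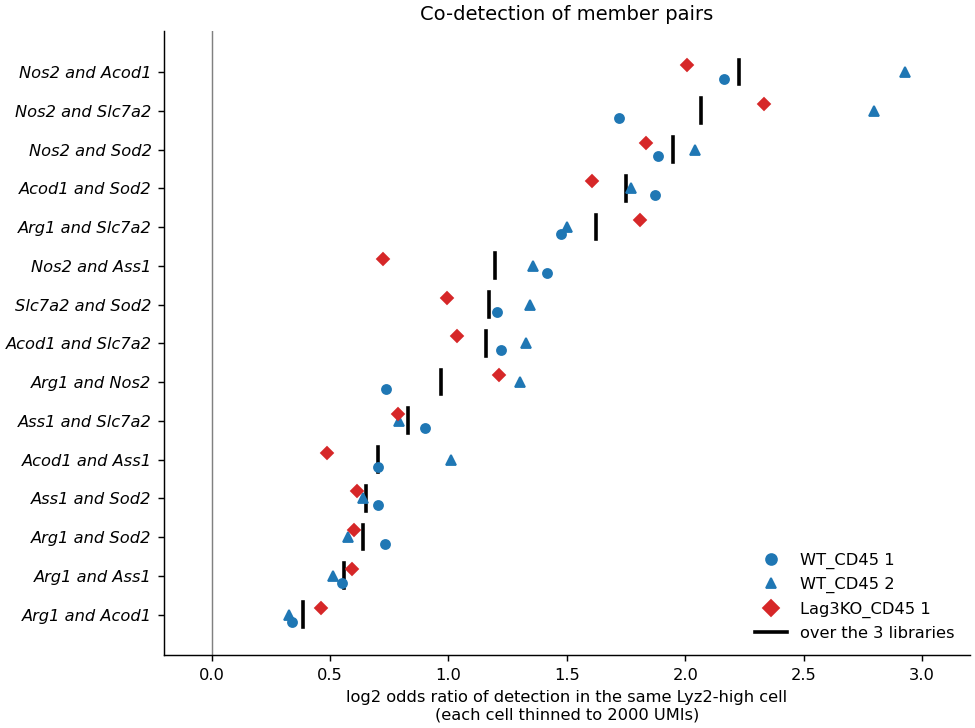
Log2 odds ratio of detection in the same Lyz2-high cell for the 15 pairs of members, each cell thinned to 2000 UMIs, with 1 symbol per CD45 library and a bar for the value over the 3 libraries. Every symbol lies above 0, from 0.39 for Arg1 with Acod1 to 2.23 for Nos2 with Acod1 over the libraries.

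More of the members were detected per Lyz2-high cell than per other cell. In thinned Lyz2-high cells of the CD45 libraries a mean of 1.46, 1.24 and 1.53 of the 6 members was detected, against 0.644, 0.530 and 0.533 in the other cells. At least 3 members were detected in 19.5, 13.3 and 19.8% of Lyz2-high cells and in 4.02, 1.20 and 1.83% of the others. Shares expected from the single genes were not computed, so these counts do not measure joint detection. Among the other cells the odds ratios were larger (Nos2 with Slc7a2 5.20, Nos2 with Acod1 4.72, Arg1 with Nos2 3.70). Those cells span classes with and without the genes.

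Lyz2-high cells of the CD45 libraries were then sorted by detection of Arg1 and Nos2. In WT_CD45 1, WT_CD45 2 and Lag3KO_CD45 1 there were 551, 386 and 677 cells with Arg1 only, 43, 19 and 18 with Nos2 only, 105, 24 and 86 with both and 549, 714 and 607 with neither. Without thinning, Nos2-only cells were thus fewer than cells with both in each library; at 2000 UMIs a cell they were more in WT_CD45 1 (2.39 against 2.15% of cells) and WT_CD45 2 (0.875 against 0.582%). Slc7a2 stood at 16.9, 17.6 and 13.7 CPM in cells with neither, 46.7, 54.9 and 56.3 with Arg1 only, 95.6, 158 and 117 with both and 79.9, 236 and 136 with Nos2 only. Acod1 stood at 110, 84.7 and 100.3 CPM with neither and 130, 79.6 and 112 with Arg1 only. It reached 277, 305 and 254 CPM with both and 327, 360 and 390 with Nos2 only. The summed Acod1 level was therefore higher in cells with Nos2 than in cells without it in every library. Its ranges with Arg1 only and with neither overlapped. Single cells were not separated: by kind and library, Acod1 was detected in 23.4 to 43.3% of cells without Nos2 and 68.4 to 77.9% of cells with it, unthinned.

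Sod2 had the same order, at 293 to 404 CPM with neither, 313 to 447 with Arg1 only, 567 to 650 with both and 660 to 968 with Nos2 only. Ass1 stood at 225, 273, 420 and 456 CPM in WT_CD45 1 for neither, Arg1 only, both and Nos2 only, and at 320, 320, 514 and 687 CPM in WT_CD45 2. In Lag3KO_CD45 1 Ass1 stood at 209, 254, 268 and 238 CPM, a narrower range. Mixed barcodes made up 14.2 to 17.5% of cells with neither, 18.9 to 29.3% with Arg1 only, 18.6 to 33.3% with both and 14.0 to 22.2% with Nos2 only. Median depths were 5283 to 5913 UMIs with neither, 8367 to 8739 with Arg1 only, 9311 to 11842 with both and 5622 to 6663 with Nos2 only.

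**Figure D4:**
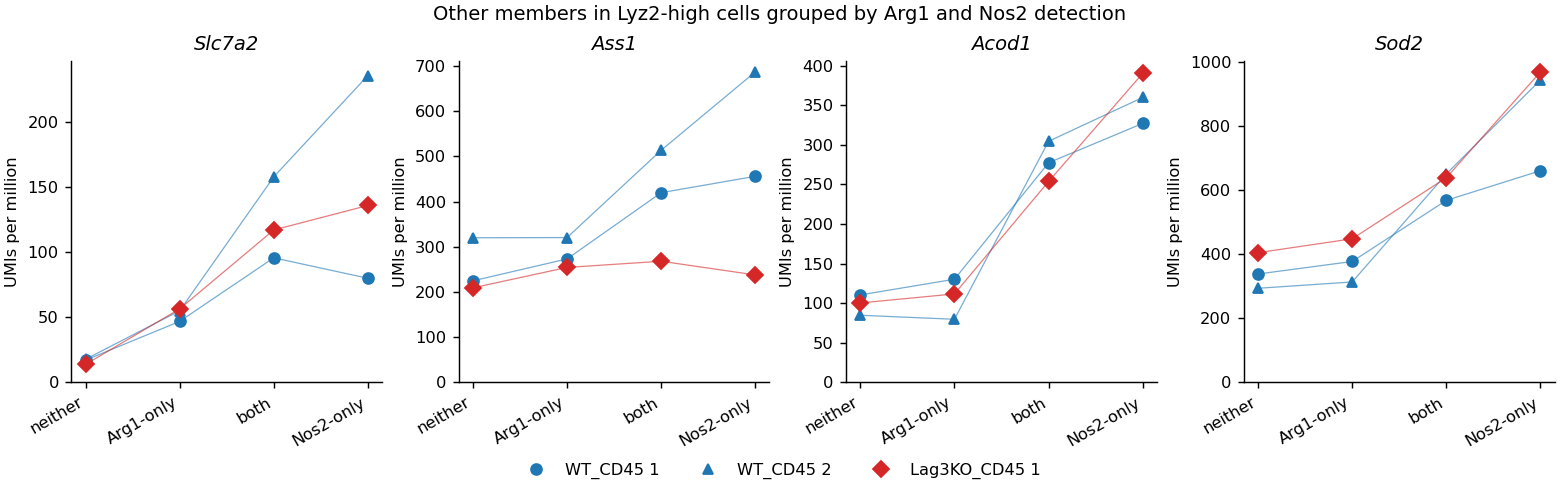
CPM of the other 4 members in Lyz2-high cells with neither Arg1 nor Nos2, Arg1 only, both or Nos2 only, 1 symbol and line per CD45 library. Slc7a2 rises from cells with neither to cells with Arg1 in all 3 libraries, and Acod1 and Sod2 are higher in cells with Nos2.

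Nos2-positive cells (with or without Arg1) were tested against Arg1-only cells on the summed counts of the 3 CD45 libraries. Of 9422 genes, 2.03% were called and 1.67% were higher in Nos2-positive cells. All 4 members that did not define the cells were called higher. Acod1 was higher by 1.41 ± 0.13 (log2; adjusted p = 2.60e-05, edgeR), Slc7a2 by 1.21 ± 0.13 (0.000103) and Sod2 by 0.81 ± 0.11 (0.000668). Ass1 was higher by 0.51 ± 0.12 (adjusted p = 0.0308, edgeR), a call lost without WT_CD45 1 (0.0538), without WT_CD45 2 (0.160) and without mixed barcodes (0.104). Without the library labelled WT_CD45 2 the other 3 stayed called, at 1.20 for Acod1, 1.03 for Slc7a2 and 0.62 for Sod2. In cells of 5000 to 10000 UMIs only, the 4 differences were 1.31 for Acod1, 1.30 for Slc7a2, 0.80 for Sod2 and 0.83 for Ass1, all called.

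The NF-kB and interferon gamma list moved with Nos2. Of its 18 tested genes 10 were higher and 0 lower in Nos2-positive cells, with a median of 0.69 against -0.00 over all genes. The T cell-attracting chemokines Cxcl9 and Cxcl10 were higher by 1.80 ± 0.12 and 1.38 ± 0.23, the co-stimulatory receptor Cd40 by 1.30 ± 0.14, the guanylate-binding protein Gbp5 by 1.22 ± 0.16 and interleukin Il1a by 1.10 ± 0.17. Among the genes with the largest differences were also the activin subunit Inhba (2.16 ± 0.23; 98.4, 47.0 and 28.9 CPM against 14.8, 11.2 and 12.5), Upp1 (1.60 ± 0.14), the interleukin 1 antagonist Il1rn (1.59 ± 0.15), Cnn3 (1.52 ± 0.18), the transcription factor Batf2 (1.27 ± 0.13) and Procr (1.24 ± 0.16). Gch1, of the Nos2 cofactor pathway, was higher by 0.61 ± 0.11, and the cystine transporter Slc7a11, of the Nrf2 list, by 1.12 ± 0.13. Of 13 alternative activation genes, 2 were higher, the chemokine Ccl24 by 2.93 ± 0.59 and Pdcd1lg2 by 0.77 ± 0.19, and 0 were lower. Of 21 hypoxia and glycolysis genes 7 were higher, the glucose transporter Slc2a1 by 0.60 ± 0.10 and lactate dehydrogenase Ldha by 0.33 ± 0.07. Of 25 itaconate and citric acid cycle genes Acod1 alone was called. All values named had adjusted p under 0.05 in edgeR.

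Of 12 lipid-handling genes tested, 4 were lower in Nos2-positive cells, 1, Lgals3, was higher (0.27 ± 0.06) and 7 were not called. The lipid carrier Apoe fell by 0.68 (standard error 0.08), from 16629, 23066 and 15571 CPM in Arg1-only cells to 9614, 12071 and 12565 CPM. Trem2, a lipid receptor of microglia and macrophages, fell by 0.50 (0.09), Fabp5 by 0.50 (0.08) and Gpnmb by 0.49 (0.10). Tmem37 (-0.86 ± 0.16), Dhrs3 (-0.75 ± 0.13), lysozyme Lyz1 (-0.68 ± 0.17), Ehd4 (-0.61 ± 0.13), Metrnl (-0.57 ± 0.12), Olfml3 (-0.57 ± 0.12), the chemokine Ccl3 (-0.56 ± 0.11) and Arl11 (-0.52 ± 0.11) were also among the 10 largest falls. Without mixed barcodes 52 genes were called in place of 191, and Acod1, Slc7a2 and Sod2 remained called (1.34, 1.13 and 0.81).

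Arg1-only cells could be set against Nos2-only cells with at least 20 cells a library only at the Lyz2 threshold of 25 per 10000, with 48, 25 and 20 Nos2-only cells. Of 9091 genes 3.23% were called, 95 higher and 199 lower in Arg1-only cells, against 28 and 111 with DESeq2. Acod1 fell by 1.88 (standard error 0.14), Slc7a2 by 1.32 (0.22), Sod2 by 1.19 (0.12) and Ass1 by 0.87 (0.13), all called in edgeR. In this fit edgeR gave all genes 1 shared spread, so its p-values are small and are not printed. Without WT_CD45 2 Slc7a2 (-0.82, adjusted p = 0.154, edgeR) and Ass1 (-0.52, adjusted p = 0.130, edgeR) were no longer called. Among called genes of at least 50 CPM with the same direction in every library, Cxcl9 had the largest fall, by 2.76 (0.12). It stood at 1186, 1706 and 1640 CPM in Nos2-only cells and at 212, 194 and 255 CPM in Arg1-only cells. Trem2 was higher in Arg1-only cells by 1.42 ± 0.15 and Fabp5 by 1.42 ± 0.14.

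Against cells with neither enzyme, Arg1 without Nos2 went with the transporter Slc7a2 and with lipid and hypoxia genes. Of 12 lipid genes, 4 were lower in Nos2-positive than in Arg1-only cells, 1 was higher and 7 were not called. Slc7a2 and 7 of 21 hypoxia and glycolysis genes were higher still in Nos2-positive than in Arg1-only cells, and 0 of the 21 were lower. In Arg1-only against Nos2-only cells 6 of the 21 were lower and 0 higher (median -0.37). Arg1-only cells were tested against cells with neither enzyme, and of 10206 genes 18.4% were called, 7.5% higher and 10.9% lower (765 and 1109 genes, against 156 and 418 with DESeq2). Among called genes of at least 50 CPM with the same direction in every library, Slc7a2 had the largest rise, 1.68 ± 0.11 (adjusted p = 1.17e-08, edgeR). Ass1 (0.15 ± 0.06, adjusted p = 0.0838, edgeR), Sod2 (0.10 ± 0.05, 0.168) and Acod1 (0.08 ± 0.07, 0.487) were not called. In cells of 5000 to 10000 UMIs all 4 were called, Slc7a2 at 2.27, Sod2 at 0.45 (adjusted p = 6.08e-05, edgeR), Acod1 at 0.43 (0.00364) and Ass1 at 0.40 (0.000599). Ass1 and Sod2 were also called without cluster CD45-0 (0.27 and 0.27; adjusted p = 0.00768 and 0.004, edgeR), and Ass1 without mixed barcodes (0.18; 0.0425) or without WT_CD45 2 (0.24; 0.0141).

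Of 12 lipid-handling genes, 8 rose with Arg1 and 1, lipoprotein lipase Lpl, fell (median 0.67 against 0.01 over all genes). Gpnmb rose by 1.23 ± 0.07, Fabp5 by 1.13 ± 0.10, the cholesterol exporter Abca1 by 1.11 ± 0.08 and Apoe by 0.81 ± 0.04. Of 21 hypoxia and glycolysis genes 16 rose and 1, Ndrg1, fell (median 0.27); the angiogenic factor Vegfa rose by 1.27 ± 0.12, the oxygen sensor Egln3 by 1.14 ± 0.13 and Bnip3 by 0.66 ± 0.07. Of 18 arginine and polyamine genes 3 rose, Slc7a2, Gatm (0.63 ± 0.06) and Odc1 (0.40 ± 0.08), and 2 of polyamine breakdown fell, Smox by 0.77 (0.09) and Sat1 by 0.45 (0.05). Of 18 NF-kB and interferon gamma genes 11 fell and 2, Tnf and Tnfaip3, rose; Cxcl10 fell by 1.44 (0.05). Further large rises were those of Acp5 (1.12 ± 0.07), Syngr1 (0.97 ± 0.07), Fam20c (0.97 ± 0.08), Tmem37 (0.96 ± 0.09), fibronectin Fn1 (0.92 ± 0.05) and Ecm1 (0.86 ± 0.09).

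Of the 10 largest falls 7 were neutrophil granule and alarmin genes, led by Ngp (-2.65 ± 0.32), Retnlg (-2.59 ± 0.33), Ltf (-2.43 ± 0.20), S100a9 (-2.36 ± 0.31) and Lcn2 (-2.31 ± 0.17). Camp (-2.09 ± 0.39) and S100a8 (-2.04 ± 0.26) were the others. Neutrophil-like cells numbered 20, 0 and 5 among Arg1-only cells and 15, 7 and 8 among cells with neither, so only WT_CD45 1 had more of them with Arg1. Ifitm6 (-2.01 ± 0.09) and the dendritic cell lectin Cd209a (-1.65 ± 0.11) were also among the 10. All values named had adjusted p under 0.05 in edgeR. Restricted to clusters named monocyte- or macrophage-like, Slc7a2 was higher by 1.83 ± 0.14 and Acod1 stood at -0.17 ± 0.08 (adjusted p = 0.175, edgeR).

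Lag3 deficiency was the study's comparison, and no member was called for it. Over both sorts, with the sort as a term, 0 of 5804 genes (0%) were called by edgeR, 160 had an unadjusted p under 0.05, and DESeq2 called 0. Within the CD45 libraries edgeR called 0 genes (0%; 140 unadjusted) and DESeq2 0, and for the difference between sorts edgeR called 0 (0%; 232 unadjusted) and DESeq2 2. Adjusted p was 1.00 for all 6 members in all 3 tests. Over both sorts Arg1 differed by 0.27 ± 0.36 (log2, Lag3KO minus WT), Nos2 by -0.53 ± 0.55, Ass1 by -0.33 ± 0.22, Slc7a2 by 0.11 ± 0.20, Sod2 by 0.14 ± 0.21 and Acod1 by -0.00 ± 0.37. Each difference lay within 2 standard errors of 0. Without the library labelled WT_CD45 2 they were 0.01 for Arg1, -1.01 for Nos2, -0.27 for Ass1, 0.03 for Slc7a2, 0.06 for Sod2 and -0.17 for Acod1, with adjusted p of 1.00 in edgeR.

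Arg1 in Lyz2-high cells was 838 ± 617 CPM (SD, n = 2) in WT_CD4 and 796 ± 96.5 (n = 2) in Lag3KO_CD4, and 460 ± 257 (n = 2) in WT_CD45 against 825 in the single Lag3KO_CD45 library. The groups overlapped in the CD4 sort, and in the CD45 sort the Lag3KO library lay above both WT libraries. Within the CD45 libraries the Arg1 difference was 0.80 ± 0.55 and was 0.30 ± 0.44 without the library labelled WT_CD45 2, while it was 1.53 without WT_CD45 1. Nos2 was 14.3 ± 5.30 CPM in WT_CD4, 13.5 ± 12.5 in Lag3KO_CD4, 21.0 ± 18.6 in WT_CD45 and 14.3 in Lag3KO_CD45. Its difference within the CD45 libraries was -0.61 ± 0.62, and -1.31 ± 0.49 without the library labelled WT_CD45 2. Ass1, Slc7a2 and Sod2 differed by -0.39, 0.15 and 0.30 within the CD45 libraries, and by -0.28, 0.08 and 0.14 without the library labelled WT_CD45 2. The direction of Acod1 changed with the settings: it was -0.01 ± 0.50 within the CD45 libraries, -0.33 ± 0.45 without the library labelled WT_CD45 2 and 0.21 ± 0.43 in cells of the named monocyte or macrophage clusters.

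The share of Lyz2-high cells with Arg1 only, thinned to 2000 UMIs, was 26.5 and 18.4% in WT_CD4, 28.7 and 28.1% in Lag3KO_CD4, 33.5 and 21.3% in WT_CD45 and 38.9% in Lag3KO_CD45. Each Lag3KO library lay above the WT libraries of its sort, by 8.75 percentage points on average (exact permutation within sort, two-sided, p = 0.222, adjusted 0.333 over 3 shares). The design has 18 arrangements and a smallest p of 0.0556, so no call was possible. Without the library labelled WT_CD45 2 the difference was 5.7 points. Nos2-only shares were 1.40 and 2.21% in WT_CD4, 0.591 and 0.233% in Lag3KO_CD4, 2.39 and 0.875% in WT_CD45 and 0.947% in Lag3KO_CD45. They differed by -1.04 points (exact permutation p = 0.167, adjusted 0.333) and by -1.42 points without the library labelled WT_CD45 2, with overlap in the CD45 sort. Cells with both made up 1.32 and 0%, 1.72 and 0.814%, 2.15 and 0.582%, and 1.48% in the same order, a difference of 0.361 points (exact permutation p = 0.611) that turned to -0.0306 points without the library labelled WT_CD45 2. The 0 of WT_CD4 2 rests on 34 cells.

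**Figure D5:**
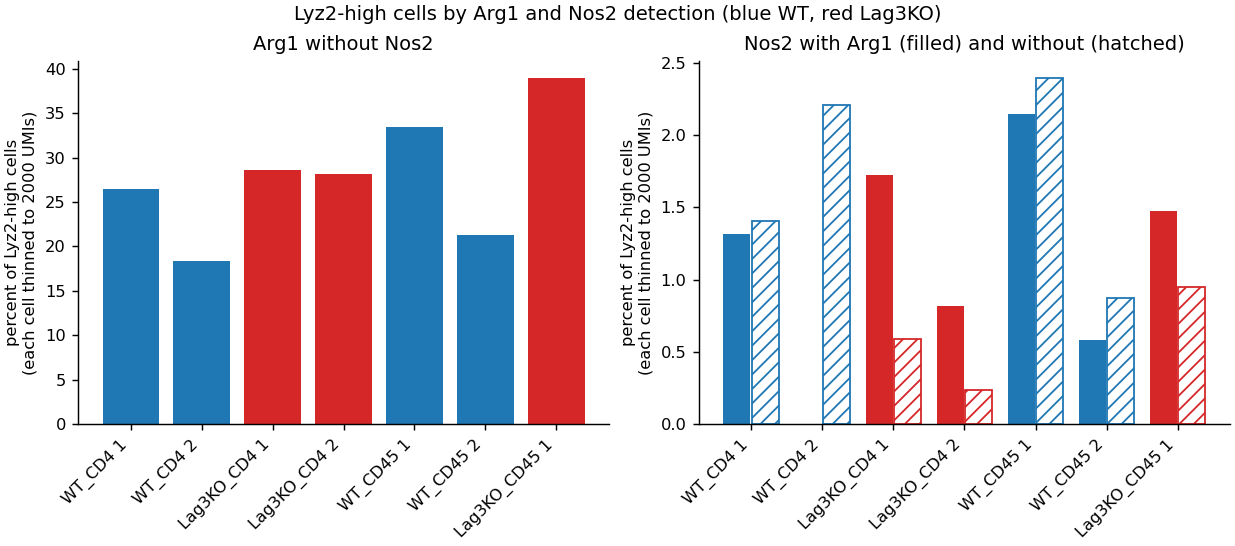
Percent of Lyz2-high cells, each thinned to 2000 UMIs, with Arg1 and no Nos2 (left), and with Nos2 and Arg1 (filled) or Nos2 and no Arg1 (hatched; right) in each of the 7 libraries, blue for WT and red for Lag3KO. The Arg1-only share is higher in each Lag3KO library than in the WT libraries of its sort, and neither part of the Nos2 share passes 2.39% in any library.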

How the data were processed

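The authors deposited UMI counts per gene and barcode for each library (10x 3′ chemistry version 2, per the labels' protocols); Cell Ranger 3.0.2 is named in the file headers of the CD4 libraries, and Seurat, GRCm38 and mm10 per the submitters' processing notes. Barcodes with under 200 genes or over 10% mitochondrial UMIs were removed, and the barcodes closest to simulated doublets (15 to 51 a library, a share set by the number of barcodes) were removed, leaving 1362 to 2466 cells a library. A mixed barcode held at least 2 UMIs of T cell genes and at least 5 per 10000. Cells were clustered per sort (2000 variable genes, 30 components, 15 neighbours, Leiden resolution 1.0) without 163 genes, the members included. Counts were summed per library and kind of cell (at least 20 cells) and tested with edgeR 4.0.16 (TMM, quasi-likelihood, Benjamini-Hochberg over all genes tested, threshold 0.05); DESeq2 1.42.0 was the alternative. Fits used R 4.3.3, and other steps Python 3.11.15, scipy 1.17.1 and leidenalg 0.10.2. Simulated counts, with a spread shared by all genes, were used to try the fits of genotype over both sorts and of Lyz2-high against other cells. The fits of Nos2-positive against Arg1-only cells and of Arg1-only cells against neither were also tried. The other fits were not tried on simulated counts. CPM is per 1000000 UMIs. Thinning to 2000 UMIs was repeated in 20 draws and averaged. In the odds ratio of a single library 0.5 was added to each count, and in the Mantel-Haenszel value over libraries nothing was added. Likeness used log2(CPM + 1) of genes with a mean of at least 20 CPM. Genes named beyond the members and lists are the 10 with the largest change in each direction. They were picked among called genes of at least 50 CPM on either side with the same direction in every library. The members and lists were chosen with earlier results of these data known, and the Nos2-positive and neither comparisons were added after seeing that Nos2-only cells were few. Some genes that this rule picks are not reported here.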

Additional observations from a re-analysis of the deposited data

How the results depend on the processing

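Of the values for single genes and pairs under other settings, 519 kept direction and side of the threshold, 19 gained a call, 6 lost one, 26 moved and 37 reversed. For genotype over both sorts, 93 genes were called with no filter, 1 without cluster CD45-0 and 0 to 11 leaving out each library (11 without Lag3KO_CD4 1). Within the CD45 libraries 88 were called with no filter and 0 to 9 leaving out each library (9 without WT_CD45 2). For the difference between sorts the counts were 2 with DESeq2, 21 with no filter, 1 without mixed barcodes and CD45-0, and 0 to 6 leaving out each library (6 without WT_CD45 2). Lyz2-high against other cells gave 2201 calls without mixed barcodes, 2241 without these and CD45-0, and 2916 to 4041 leaving out each library. Arg1-only against Nos2-only cells gave 139 with DESeq2 and 139 to 238 leaving out each library (139 without WT_CD45 2). Nos2-positive against Arg1-only cells gave 102 with DESeq2, 354 with no filter, 52 without mixed barcodes, 386 in named monocytes or macrophages, 299 in cells of 5000 to 10000 UMIs, 294 requiring at least 2 UMIs, and 111 to 155 leaving out each library (111 without WT_CD45 2, 114 without Lag3KO_CD45 1). Arg1-only cells against neither gave 574 with DESeq2, 942 in cells of 5000 to 10000 UMIs and 1254 to 1565 leaving out each library. The Arg1 with Nos2 odds ratio was 1.53 unthinned and 0.84 to 1.24 leaving out each library. Leaving out each library, the genotype difference in share ran from 5.70 to 11.8 points for Arg1 only, -1.42 to -0.660 for Nos2 only and -0.0306 to 0.752 for both. Acod1 reversed over both sorts with DESeq2 (0.040), a Lyz2 threshold of 100 (0.38), CD45-0 out (0.028), neutrophil-like cells out (0.060) and named monocytes or macrophages (0.19). It reversed within the CD45 libraries at 100 (0.080), mixed barcodes out (0.034), CD45-0 out (0.026), both out (0.047), neutrophil-like cells out (0.046) and named monocytes or macrophages (0.21). It reversed between sorts at 25 (-0.00040), mixed barcodes out (-0.14), these and CD45-0 out (-0.15) and named monocytes or macrophages (-0.047), and for Arg1-only cells against neither in named monocytes or macrophages (-0.17). Between sorts Ass1 reversed at 100 (-0.42), mixed barcodes out (-0.040) and these and CD45-0 out (-0.062), and Slc7a2 at 100 (0.32). Leaving out each library, values over both sorts ran from -0.15 to 0.90 for Arg1, -0.14 to 0.21 for Slc7a2 and -0.19 to 0.32 for Acod1, and within the CD45 libraries from -0.33 to 0.36 for Acod1. Between sorts they ran from -1.67 to 0.24 for Arg1, -1.12 to 1.34 for Nos2, -1.04 to 2.85 for Acod1, -0.39 to 0.67 for Ass1, -1.79 to 1.24 for Slc7a2 and -0.72 to 0.51 for Sod2. The cause was not tested. The median over all genes tested was -0.10 with edgeR and 0.22 with DESeq2 for Lyz2-high against other cells, over different numbers of genes (10374 and 18538), and 0.06 and -0.14 for Arg1-only against Nos2-only cells (9091 and 16103). At a Lyz2 threshold of 100, without mixed barcodes, with at least 2 UMIs or in named monocytes or macrophages, Arg1-only against Nos2-only cells could not be fitted. A left-out library that leaves 1 in a group is fitted with the spread of the others. Settings that leave out CD45-0 or neutrophil-like cells and the depth range were chosen after seeing the data. No paired analysis was possible because replicate numbers were given in accession order and pair nothing. Nos2 rests on 1 to 10 UMIs in each CD4 library, from 37 to 106 Lyz2-high cells.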
